A study of Drosophila melanogaster with 58 samples.

Results

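The genes described here are 49 Drosophila melanogaster genes that still carry only a CG number as their FlyBase symbol and whose RNA in the wild-type pupal wing peaked sharply at 44 h after puparium formation (APF), the start of metamorphosis. They were chosen by their wild-type level. A gene was kept when its mean over the 2 wild-type libraries at 44 h APF was at least 20 CPM (the count divided by the library's total on genes and scaled by 1e6) and at least 4 times the mean at each of the 5 earlier stages, which were the wandering third-instar larva (L3) and 6, 18, 24 and 36 h APF. Of 17559 genes counted, 6009 had a symbol made of CG and digits, and 49 of these passed, with 3 genes left out beforehand. The wild-type values are therefore a description, and tests were made only in the transgenic wings, which the choice did not use.

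RNA was sequenced from dissected female wings, with 2 libraries for each of the 6 wild-type stages and 2 for each of 3 transgenic genotypes at 24 h and at 44 h APF. All transgenic pupae carried hs-FLP, tub>CD2>GAL4, UAS-GFP and tub-gal80TS, so that a larval heat shock made the tubulin promoter drive GAL4 in cells of any type that lost the CD2 cassette, and a shift to a warmer temperature in the early pupa released GAL4 from Gal80. Control wings carried nothing more. E2F wings also carried UAS-E2F1 and UAS-DP, which together make the activating E2F transcription factor, and E2F+CycD wings carried these on another chromosome together with UAS-CycD and UAS-Cdk4, a cyclin and its kinase that inactivate the retinoblastoma proteins. Times of the transgenic pupae are the equivalents at the usual rearing temperature. The study used E2F to delay, and E2F with CycD and Cdk4 to bypass, the exit from the cell cycle that wing cells normally make by about 24 h APF. The wings were whole organs, so fewer cells of a type and less RNA per cell cannot be told apart.

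By 44 h APF the cells of the wing epithelium have left the cell cycle, have built their hairs and secrete the layers of the adult cuticle. Secretion of cuticle calls on structural proteins, on enzymes that cross-link or cut them and on transporters in the apical membrane, and genes for these are switched on in successive waves under the hormone ecdysone. Many genes expressed at such moments have never been studied singly and keep the CG number given when the genome was annotated.

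The 49 genes all code for protein, and RefSeq calls all 49 products uncharacterized. Their annotated promoters share few letters. A TATA box, the sequence at which the transcription machinery assembles upstream of some strongly regulated genes, is one of them: TATAAA on the gene's own strand, beginning 25 to 40 bases before the start, was present in 11 of 49 promoters (22.4%), against 7.06% of all 13944 RefSeq promoters. That window was chosen after the sequences had been seen. Of the 11, 5 are shown. They are the gene with the highest level (CG12017) and CG14770, CG3108, CG11693 and CG42323, which were lower in E2F+CycD than in control wings at 44 h. CG30076 and CG12003, also among the 11, fell further than CG42323 and are not shown. Each runs from 100 bases before to 10 bases after the annotated start on the Release 6 (dm6) genome, at chrX:1369149-1369258 on the plus strand for CG14770, chrX:5781611-5781720 on the minus strand for CG3108, chr3R:8310769-8310878 on the minus strand for CG11693, chrX:18422313-18422422 on the plus strand for CG42323 and chr3L:3280139-3280248 on the plus strand for CG12017. Capitals mark TATAAA, or GAAAGT (the core bound by the ecdysone-induced repressor Blimp-1), on either strand, so that ACTTTC and TTTATA are the same motifs read from the other strand.
CG14770: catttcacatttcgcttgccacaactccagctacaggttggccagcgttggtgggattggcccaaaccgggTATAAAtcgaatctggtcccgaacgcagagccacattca
CG3108: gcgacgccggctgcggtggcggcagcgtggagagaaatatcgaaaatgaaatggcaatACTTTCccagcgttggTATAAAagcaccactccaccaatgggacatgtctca
CG11693: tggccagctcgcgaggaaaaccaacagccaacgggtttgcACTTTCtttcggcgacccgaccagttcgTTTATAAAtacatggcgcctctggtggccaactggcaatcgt
CG42323: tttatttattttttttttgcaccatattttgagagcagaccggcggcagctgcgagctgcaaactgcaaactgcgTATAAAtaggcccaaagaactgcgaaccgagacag
CG12017: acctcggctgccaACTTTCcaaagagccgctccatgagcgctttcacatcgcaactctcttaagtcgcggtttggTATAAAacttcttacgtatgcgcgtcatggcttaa
The TATA box begins 29 bases before the start in CG14770, 26 in CG3108, 30 in CG11693 and 25 in both CG42323 and CG12017. Over the wider window from 250 bases before to 50 after the start, and on either strand, GAAAGT was found in 20 of the 49 (40.8%, against 19.9% of all promoters). TATAAA was found in 26 (53.1% against 45.8%) and the initiator letters TCAGT in 30 (61.2% against 51.5%). The E2F site TTTGGCGC was found in 1, that of CG14431 (2.04% against 2.36%), TTTCGCGC in 0 (against 1.15%), and AAGGTCA, a site for nuclear receptors of the ecdysone cascade, in 1, that of CG9664 (2.04% against 2.12%). These are matches of letters only.

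In wild-type wings the 49 genes together took 0.0145% of all counts on genes in the larva, 0.334% at 6 h APF, a share of 0.0665% and then 0.0582% at 18 and 24 h, 0.443% at 36 h and 9.05% at 44 h. Their mean level at 44 h ran from 20.1 to 36987 CPM with a median of 358 CPM. Of the 49, 13 stayed under 100 CPM. The level at 44 h was 4.08 to 206 times that of the next highest stage (median 7.26), with 21 genes at 10-fold or more and 6 at 50-fold or more. That next highest stage was 36 h in 29 genes and 6 h, when the pupal cuticle is being laid down, in 16. It was 18 h in 3 and L3 in 1 (CG43897). In all 49 the lower of the 2 libraries at 44 h was at least 2 times every library of another stage.

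**Figure D1:**
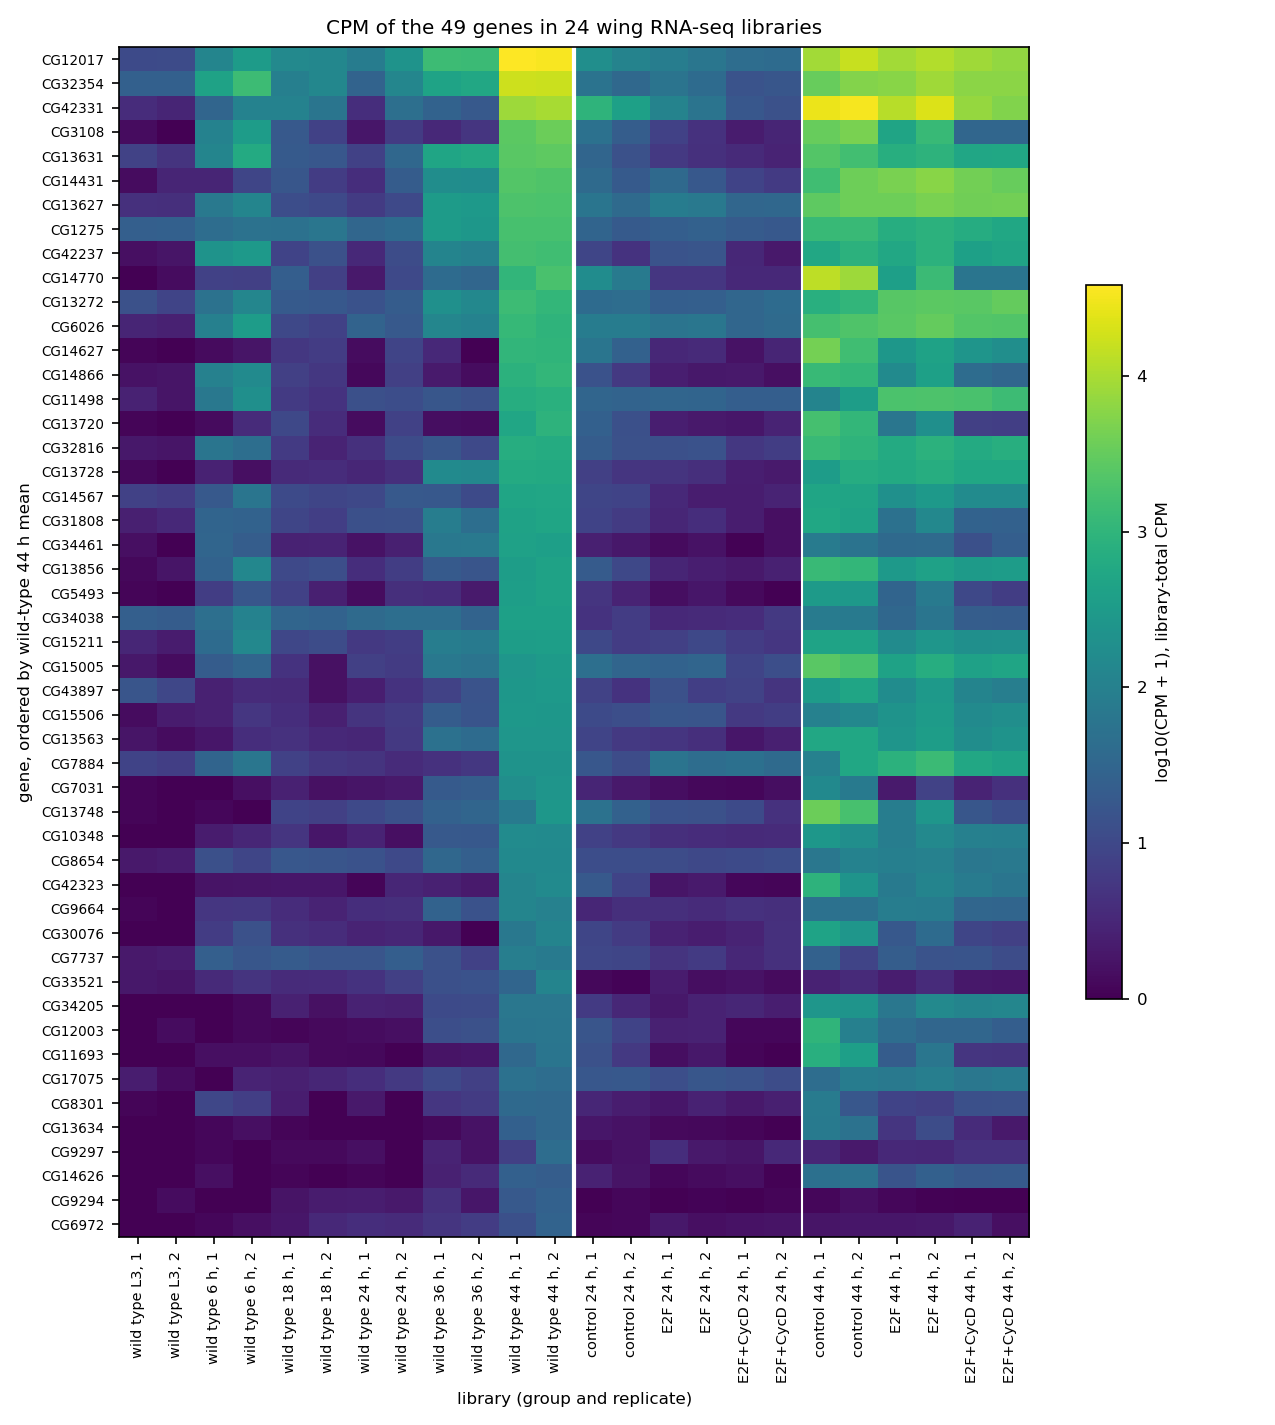
Heat map of log10(CPM + 1) of the 49 genes (rows) in the 24 RNA libraries (columns, by genotype, stage and replicate). Among the wild-type columns all rows are brightest at 44 h because they were chosen for that. The control columns at 44 h are bright in most rows, brighter than wild type in some, and the E2F+CycD columns at 44 h are darker in many.

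The thresholds cut through a continuum. Just inside the level threshold were CG6972 at 20.1 CPM and CG9294 at 21.9 CPM, and just outside it, with the fold met, CG42319 at 19.5 CPM and CG18622 at 18.8 CPM. Just inside the fold threshold were CG15211 at 4.08-fold and CG6972 at 4.17-fold, and just outside it CG4239 at 3.85-fold and CG1674 at 3.69-fold.

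The most abundant genes per kilobase of exon were CG12017 (13868 CPM per kb), CG32354 (5203), CG14770 (2090), CG13631 (1703) and CG42331 (1659), against a median of 215 CPM per kb and a lowest value of 5.71 for CG9297. CG12017, at 3L:3280239-3290896 on the plus strand of dm6, codes for a protein of 594 residues with a hydrophobic stretch at its N-terminus. Its wild-type libraries held 9.73 and 9.99 CPM in the larva, between 82.7 and 331 CPM from 6 to 24 h APF, 1367 and 1363 CPM at 36 h, and then 38605 and 35368 CPM at 44 h. Both libraries at 44 h thus stood far above all others, with 36 h next. CG32354 (3L:8415857-8422205, minus strand), whose closest protein of another gene was follistatin (24.7% identity over 215 residues), a secreted protein that binds growth factors of the activin family, held 437 and 1396 CPM at 6 h. Its libraries at 36 h held 454 and 563 CPM, and those at 44 h 17226 and 16602 CPM. It showed an early pupal rise as well as the late peak.

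CG42331 (3R:24772181-24784562, plus strand) had a protein of 1615 residues most like that of curly Su, a heme peroxidase (36.8% identity over 650 residues). It held 29.8 and 105 CPM at 6 h and 109 and 60.7 CPM at 18 h, its next highest stage. It then held 2.93 and 45.8 CPM at 24 h, 27.0 and 17.8 CPM at 36 h and 8072 and 9518 CPM at 44 h. No stage was sampled between 36 h and 44 h, so the course of its rise was not seen. CG3108 (X:5777195-5781620, minus strand) held 105 and 348 CPM at 6 h, only 2.37 and 4.05 CPM by 36 h, and then 2707 and 3604 CPM. CG14627 (X:1181620-1183502, plus strand) had the largest fold over the next stage, 206, with 2.37 and 0 CPM at 36 h and 1057 and 998 CPM at 44 h.

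In 8 genes the libraries differed by more than 1.5 times between the 2 wild-type replicates at 44 h, and in all 8 replicate 2 was higher. CG14770 (X:1369249-1370176, plus strand), a short protein of 151 residues of which 23.8% are histidine, was at 1038 and 1846 CPM, and CG13720 (3L:4498856-4500500, minus strand) at 508 and 930 CPM. CG13748 was at 74.4 and 270 CPM, CG30076 at 67.3 and 116, and CG11693 at 35.2 and 59.8. The others were CG33521 (30.5 and 118 CPM), CG6972 (11.99 and 28.2 CPM) and CG9297 (6.541 and 42.8 CPM).

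In the transgenic libraries the labels could be checked against the transgenes. At 44 h E2f1 was at 61.1 and 74.8 CPM of the library total in control, 3508 and 3701 in E2F and 1776 and 2288 in E2F+CycD wings, and CycD at 15.9 and 15.5, 28.1 and 23.4, and 1979 and 2114 CPM. E2f1 was therefore lower in E2F+CycD than in E2F wings, and Dp, at 96.2 and 105 against 1003 and 1047 CPM, differed more. In control wings Dp was at 38.2 and 32.6 CPM. By the fit described below its log2 change against control was 0.52 in E2F+CycD, too small for a call, and 4.25 in E2F wings. Total counts on genes ran from 1900774 to 7512920 in the wild-type and from 11201219 to 16332737 in the transgenic libraries, so low levels are more precise in the latter. Scaling by the trimmed mean of M-values (TMM) gave the 2 control libraries at 44 h factors of 0.585 and 0.565, against 1.12 and 1.16 for E2F+CycD. The median log2 change of all tested genes at 44 h was -0.06 in E2F+CycD and -0.07 in E2F against control with TMM, and 0.92 and 0.54 with library totals. All transgenic levels below are TMM-scaled CPM unless said otherwise, changes are log2 fold changes ± SE from edgeR's quasi-likelihood test with 2 libraries a group, and a gene was called at a Benjamini-Hochberg adjusted p under 0.05 over 9636 tested genes and a change beyond 1 either way.

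Control wings repeated the late rise. Of the 49 genes, 48 passed the filter on low counts, 34 of them in all 6 groups and 0 through a single group. CG13634, CG33521 and CG6972 passed it through groups at 44 h only. The filter thus favoured a rise from 24 h in these, and their rise is no evidence in any genotype. All 48 were called higher at 44 h than at 24 h, against 20.6% of all tested genes. Their median change was 6.96 against -0.03 over all tested genes. In all 48 both libraries at 44 h lay above both at 24 h, but the share of all tested genes with such libraries was not counted. CG14866 (3R:15316471-15318285, plus strand) rose most among the genes with at least 50 counts in each library at 44 h, from 11.9 and 4.39 CPM to 2071 and 1953 CPM, a change of 7.97 ± 0.61 (adjusted p = 6.18e-07). CG42237 rose from 7.22 and 3.35 to 945 and 1543 CPM (7.91 ± 0.46, adjusted p = 9.73e-08 in the same edgeR test). CG3108 rose by 7.78 ± 0.62, CG5493 by 7.69 ± 0.57, CG13728 by 7.58 ± 0.39 and CG14431 by 7.55 ± 0.61. Scaled by library totals, 46 of the 48 were called and the median change was 6.00.

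The gene that was not tested, CG9294, fell under the filter because the control wings did not show its wild-type level. Its counts were 117 and 190 in the wild-type libraries at 44 h and 3 and 7 in the deeper control libraries at 44 h. They were 3 and 1 in E2F and 0 in both E2F+CycD libraries, where a level of up to 3 counts would not have been seen. Control and wild type were separate sets of libraries that differ in genotype and rearing temperature, and these cannot be told apart.

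On the scale of library totals the control level at 44 h was 0.0166 to 15.5 times the wild-type level (median 1.27), with 22 genes within 2-fold, 14 at 2-fold or more and 13 at 0.5 or less. The 4 genes at 0.1 or less were CG9294 (0.0166), CG33521, CG6972 and CG9297. Genes of muscle moved with these 4. The summed level of 5 muscle markers found in the files (of 6 listed) was 288 and 1282 CPM in wild type and 46.2 and 59.95 CPM in control wings at 44 h, and Mhc, the muscle myosin heavy chain, was at 48.7 and 214 against 16.4 and 23.0 CPM. Among these markers twi was at or near 0, with 0.623 and 0.538 CPM in wild type and 0 and 0.147 CPM in control wings. Each of the other 3 tested genes of this group was also higher in the wild-type replicate that held more muscle RNA. Whether tissue attached to the dissected wing contributed to their wild-type peak was not tested. The 5 genes highest relative to wild type were CG13748 (15.5 times), CG11693 (12.4), CG12003 (8.86), CG15005 (7.89) and CG14770 (7.43).

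**Figure D2:**
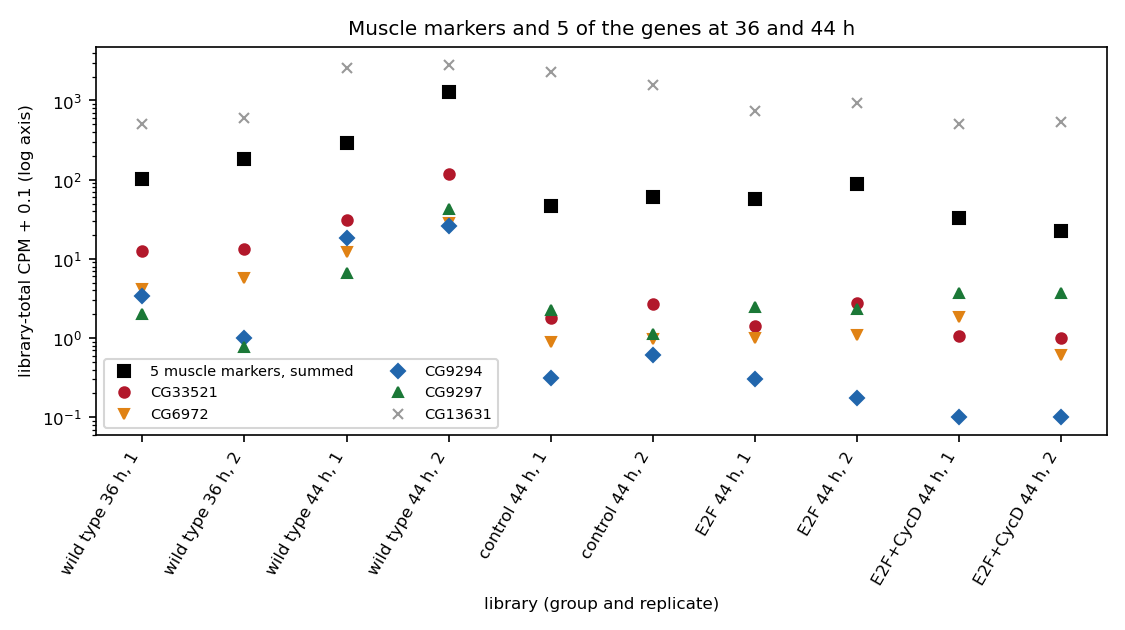
Library-total CPM + 0.1 (log axis) of the 5 muscle markers summed and of CG33521, CG6972, CG9294, CG9297 and CG13631, 1 marker per library, in wild type at 36 h and 44 h and in the 3 transgenic genotypes at 44 h. The muscle sum and the first 4 genes are lower in all transgenic libraries than in either wild-type library at 44 h and highest in wild-type replicate 2, while CG13631 in control wings stays close to its wild-type level.

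The question was whether the late genes still came on after cell cycle exit had been delayed, as in E2F wings, which the study describes as postmitotic at this stage, or bypassed, as in E2F+CycD wings, which still cycle. In E2F wings at 44 h, 30 of the 48 genes were called lower than in control wings (62.5%, against 10.5% of all tested genes) and 1 was called higher (against 12.6%). The median change was -1.48 against -0.07 over all tested genes. In E2F+CycD wings 36 were called lower (75%, against 16.1% of all tested genes) and 1 higher (against 15.1%), with a median of -2.44 against -0.06. Changes ran from -5.33 to 2.44 in E2F and from -8.81 to 1.78 in E2F+CycD wings. The comparisons share the control libraries, so their counts are not independent: 30 genes were called lower in both, 6 in E2F+CycD alone and 0 in E2F alone. Over all tested genes the share called lower in both cannot exceed the 10.5% called lower in E2F wings. As shares of the control mean, the median gene stood at 36.0% in E2F and at 18.4% in E2F+CycD wings, with 5 genes under 1% in the latter. With library totals in place of TMM the calls were 25 in E2F, of which 4 were higher, and 30 in E2F+CycD, of which 2 were higher, and the medians were -0.88 and -1.46, against 0.54 and 0.92 over all tested genes. Leaving out the 4 genes at 0.1 or less of wild type, which was decided after seeing the data, left 31 calls in E2F and 36 in E2F+CycD.

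**Figure D3:**
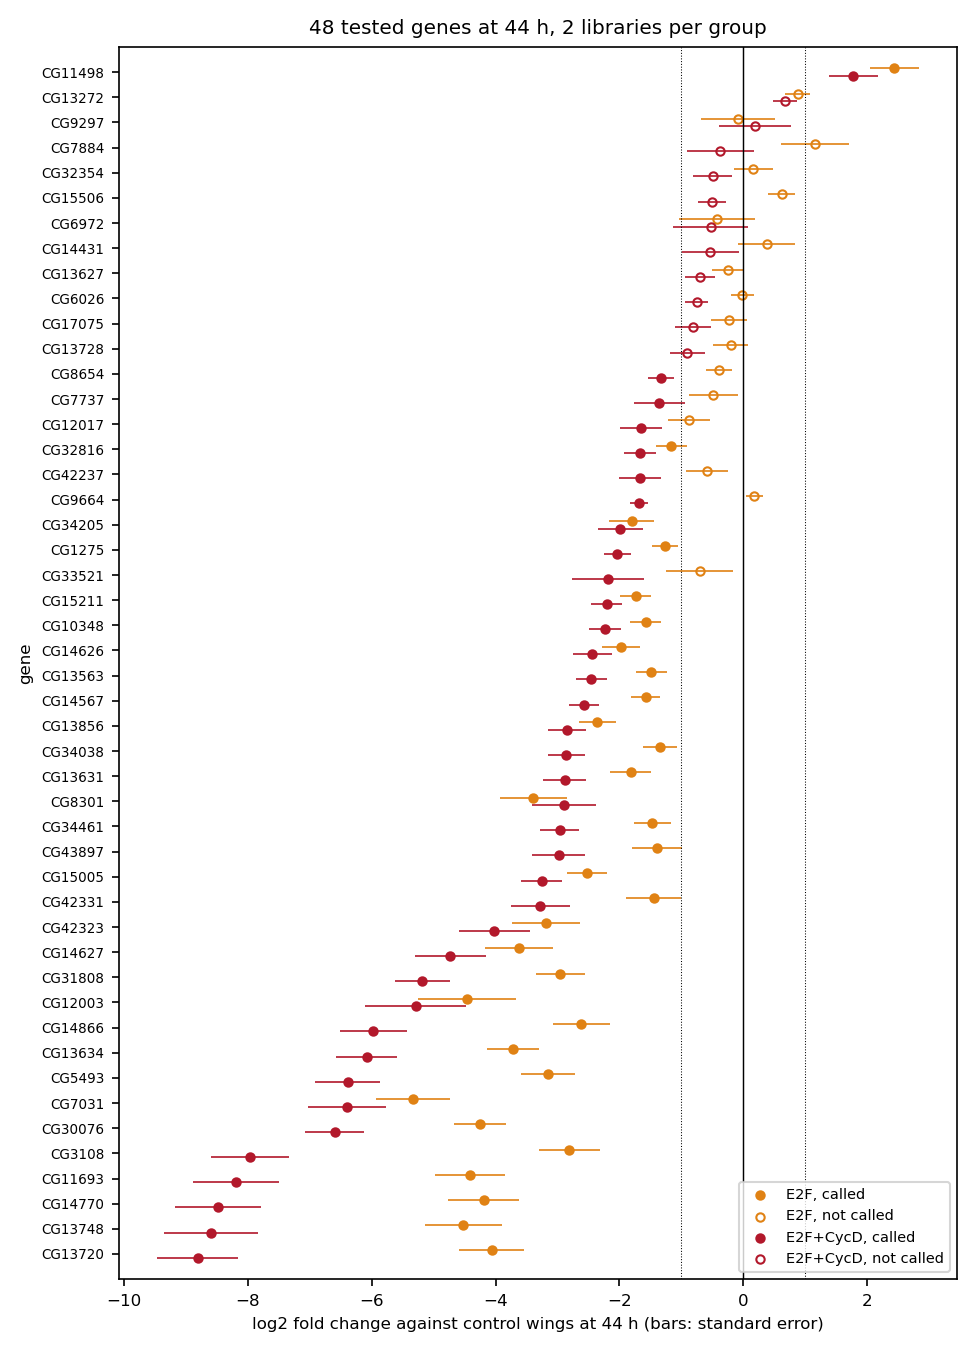
Log2 fold change against control at 44 h (x axis) for the 48 tested genes (rows), in E2F and in E2F+CycD wings, with bars of 1 SE from the edgeR fit. Most pairs lie left of 0 and the E2F+CycD point is the more negative in 46 of 48 genes, while CG11498 lies to the right of 0 in both.

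In E2F+CycD wings 5 genes stood at under 1% of control, and all 5 had intermediate levels in E2F wings. CG13720 was at 2973 and 1940 CPM in control, 68.3 and 226 in E2F and 5.60 and 5.32 in E2F+CycD wings. The 3 genotypes did not overlap. Its change was -4.06 ± 0.52 in E2F (adjusted p = 8.87e-05) and -8.81 ± 0.66 in E2F+CycD wings (adjusted p = 1.06e-06), both from edgeR's quasi-likelihood test.

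CG14770, the histidine-rich protein, was at 22813 and 14306 CPM in control, 420 and 1611 in E2F and 53.0 and 51.0 in E2F+CycD wings. Its 2 E2F libraries differed by more than 3-fold, yet both lay between the other genotypes. The change was -4.19 ± 0.57 in E2F (adjusted p = 0.000145) and -8.48 ± 0.70 in E2F+CycD wings (adjusted p = 2.05e-06) by edgeR. CG13748 (2R:8940415-8941136, plus strand, 113 residues, with a hydrophobic N-terminus) was at 6107 and 3148 CPM in control, 92.8 and 311 in E2F and 14.5 and 9.43 in E2F+CycD wings. CG11693, whose promoter holds a TATA box, was at 1342 and 690, 22.8 and 73.1, and 3.60 and 3.33 CPM. Their changes in E2F+CycD wings were -8.59 ± 0.76 and -8.19 ± 0.69.

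CG3108, with a TATA box and a GAAAGT match in the stretch printed above, was at 5754 and 8225 CPM in control, 522 and 1474 in E2F and 28.3 and 27.4 in E2F+CycD wings. Both E2F libraries lay below control, and both E2F+CycD libraries far below these. The changes were -2.81 ± 0.49 (adjusted p = 0.000848) in E2F and -7.97 ± 0.63 (adjusted p = 1.53e-06) in E2F+CycD wings by edgeR.

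**Figure D4:**
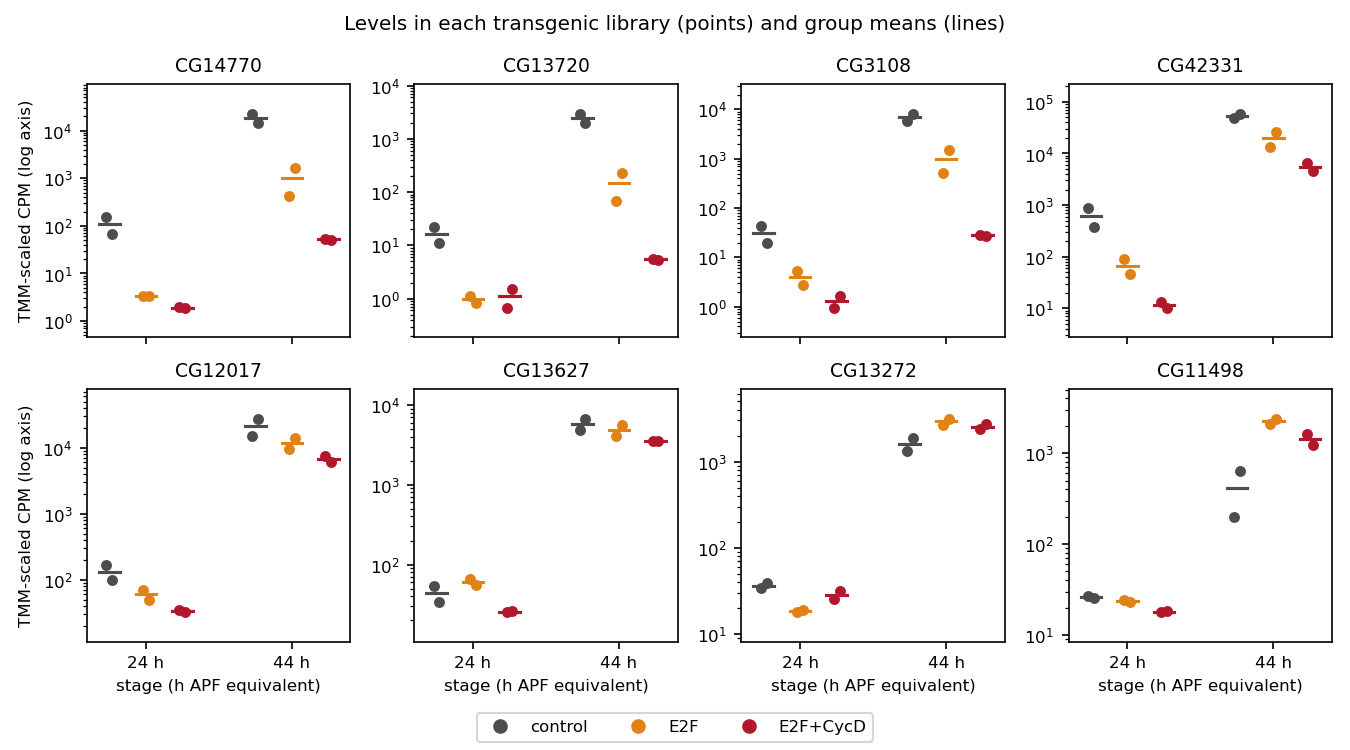
TMM-scaled CPM (log axis) of 8 genes at 24 h and 44 h in control, E2F and E2F+CycD wings, 1 point per library. At 44 h CG14770, CG13720 and CG3108 fall in steps from control to E2F to E2F+CycD. At that stage CG42331 and CG12017 fall less and CG13627 changes little. CG13272 and CG11498 lie above control in both induced genotypes at 44 h, but below it at 24 h.

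CG7031 (3R:22804291-22807290, plus strand) was at 252 and 128 CPM in control, 1.28 and 8.49 in E2F and 1.66 and 2.89 in E2F+CycD wings, so the 2 induced genotypes overlapped. It had the most negative change in E2F, -5.33 ± 0.60 (adjusted p = 3.44e-05 by edgeR), and its difference between the induced genotypes, -1.06 ± 0.68 (adjusted p = 0.283), was not called. That difference turned to 0.82 without E2F replicate 2 and was called at -1.91 without replicate 1. CG12003 (3L:1565392-1567802, plus strand) was at 1700 and 175 CPM in control, so its control libraries differed almost 10-fold, and at 47.4 and 37.6 in E2F and 28.6 and 19.3 in E2F+CycD wings. Its changes were -4.46 ± 0.78 and -5.29 ± 0.82.

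The same order of genotypes held for CG14866, at 2071 and 1953 CPM in control, 169 and 489 in E2F and 36.4 and 27.6 in E2F+CycD wings. CG5493 was at 541 and 543, 32.1 and 90.04, and 7.94 and 4.94 CPM, a change of -6.39 ± 0.52 in E2F+CycD wings. Of its exon bases 86.5% lie opposite CG5327 on the other strand, and since the sources used here do not give the strand setting of the counting, reads of the 2 genes may not have been separated. CG30076 changed by -6.60 ± 0.48 and CG13634 by -6.08 ± 0.49 in E2F+CycD wings, the latter from 133 and 91.5 CPM in control to 2.34 and 0.898.

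CG12017 and CG32354 had changes in E2F+CycD wings nearer 0 than the median gene. CG12017 was at 15160 and 27772 CPM in control, 9538 and 13910 in E2F and 7523 and 6136 in E2F+CycD wings. The E2F libraries lay below both control libraries, but the change of -0.87 ± 0.34 was not called (adjusted p = 0.0578 by edgeR, or -1.22 and called without control replicate 1). In E2F+CycD wings it was called at -1.65 ± 0.34 (adjusted p = 0.00181), and not with library totals, which gave -0.66. CG32354 was at 5576 and 9447 CPM in control, 6520 and 10330 in E2F and 5418 and 5234 in E2F+CycD wings. Its changes, 0.17 ± 0.31 and -0.50 ± 0.31, were not called, and both changed sign when a library was left out.

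CG42331, the gene with similarity to curly Su, was the most abundant of all in control wings at 44 h before correction for length. It was at 48890 and 59258 CPM in control, 13432 and 26194 in E2F and 6631 and 4537 in E2F+CycD wings, with no overlap. Its change of -1.45 ± 0.45 in E2F wings (adjusted p = 0.0238 by edgeR) was lost without control replicate 2 (-1.27), without E2F replicate 1 (-1.04), with library totals (-0.86) and with only the groups compared (-1.36), whereas -3.28 ± 0.48 in E2F+CycD wings (adjusted p = 0.000165) was not lost in any of the alternatives. Its neighbour CG13631 (3R:24769351-24770933, plus strand, 83 residues) ends 1248 bases before CG42331 begins, with no gene between them. CG13631 was at 3952 and 2796 CPM in control, 803 and 1109 in E2F and 458 and 457 in E2F+CycD wings. Both neighbours were thus called lower in both genotypes, by -1.82 ± 0.33 and -2.88 ± 0.35 for CG13631.

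A second pair of neighbours lies on the X chromosome, where 1276 bases separate CG14627 from CG14626 (X:1184778-1188585, plus strand) with no gene between. CG14627 was at 7364 and 2729 CPM in control, 289 and 532 in E2F and 223 and 157 in E2F+CycD wings. CG14626 was far less abundant, at 83.9 and 93.3, 15.5 and 29.8, and 16.5 and 16.2 CPM. Both were called lower in both genotypes, CG14627 by -4.73 ± 0.57 and CG14626 by -2.44 ± 0.31 in E2F+CycD wings. The E2F and E2F+CycD libraries of CG14627 did not overlap, whereas one E2F library of CG14626 lay below both E2F+CycD libraries.

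CG1275, most like no extended memory (34.1% identity over 214 residues), was at 2109 and 2295 CPM in control, 794 and 1040 in E2F and 618 and 460 in E2F+CycD wings. It changed by -1.26 ± 0.22 and -2.03 ± 0.22, and without TMM the first was -0.66. CG8654, most like the organic cation transporter Orct (32.8% over 527 residues), was at 112 and 190, 105 and 124, and 59.2 and 61.0 CPM. It was called in E2F+CycD wings alone, at -1.33 ± 0.21, and not without control replicate 2 (-0.78) or with library totals (-0.34).

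CG9664 (2L:3291245-3294706, minus strand) had the most even libraries. It was at 85.4 and 89.1 CPM in control, 96.1 and 101 in E2F and 28.7 and 25.7 in E2F+CycD wings. In E2F wings both libraries lay slightly above control (0.18 ± 0.14, not called), and in E2F+CycD wings it changed by -1.68 ± 0.15 against control (adjusted p = 2.85e-06) and by -1.86 ± 0.15 against E2F (adjusted p = 1.26e-05), both by edgeR. With library totals the first was -0.70, short of the fold required.

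The products of 2 genes resemble zinc-finger transcription factors and are each other's only match among the 49 (32.1% identity over 84 residues). CG10348, most like hamlet (67.2% over 131 residues), a regulator of neuronal identity, was at 454 and 332 CPM in control, 94.0 and 170 in E2F and 86.5 and 80.5 in E2F+CycD wings, changes of -1.58 ± 0.25 and -2.23 ± 0.25. CG8301, most like crooked legs (28.1% over 413 residues), an ecdysone-induced gene of metamorphosis, was at 135 and 29.7, 7.96 and 7.76, and 10.9 and 11.2 CPM. Its control libraries differed over 4-fold, and both induced genotypes lay below them, with changes of -3.39 ± 0.54 and -2.90 ± 0.51.

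Of the 49, 7 are in the study's list of cuticle genes, which it drew up for this tissue and which is therefore no independent evidence: CG12017, CG32354, CG42331, CG34461, CG42323, CG34205 and CG12003. Of these 7, 6 were called lower in E2F+CycD wings, CG32354 being the exception, and 5 in E2F wings. CG34461, most like cuticular protein 62Bc (59.0% over 117 residues), was at 138 and 95.4 CPM in control, 39.0 and 45.6 in E2F and 10.7 and 19.4 in E2F+CycD wings, a fall in 2 steps without overlap. CG42323 and CG34205 carry 8 and 15 copies of the short repeats AAPA or AAPV that are common in insect cuticle proteins. CG42323 was at 1563 and 418 CPM in control and 70.7 and 51.3 in E2F+CycD wings.

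Not all late genes fell. CG11498 (3R:30153022-30160473, minus strand, 571 residues, with no similar protein of another gene) was the one gene called higher. It was at 197 and 632 CPM in control, 2094 and 2400 in E2F and 1632 and 1214.5 in E2F+CycD wings, with all 4 induced libraries above both controls. The change was 2.44 ± 0.40 in E2F (adjusted p = 0.000508) and 1.78 ± 0.39 in E2F+CycD wings (adjusted p = 0.00257) by edgeR. In wild-type wings it stood at 768 CPM on average, and on the scale of library totals the control level was 0.307 times that. Of its exon bases 20.9% lie opposite CG15529, with the same doubt about strand as for CG5493.

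CG13272 was at 1327 and 1857 CPM in control, 2690 and 3155 in E2F and 2358 and 2734 in E2F+CycD wings. The groups did not overlap with control, but changes of 0.88 ± 0.19 and 0.68 ± 0.19 were under the fold required, which they passed with library totals (1.49 and 1.67) or without control replicate 2 (1.17 and 1.05). CG7884 was at 177 and 952 CPM in control, a 5-fold difference, and at 957 and 1566 in E2F and 494 and 381 in E2F+CycD wings. Its change in E2F, 1.16 ± 0.55, was not called (adjusted p = 0.118 by edgeR) and was called at 2.86 without control replicate 2. CG15506 was higher in E2F (0.62 ± 0.22) and lower in E2F+CycD wings (-0.51 ± 0.22), neither of them called.

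In all, 10 genes were called in none of the comparisons between genotypes at 44 h, namely CG13272, CG13627, CG13728, CG14431, CG17075, CG32354, CG6026, CG6972, CG7884 and CG9297. The share of all tested genes called in none was not counted. CG13627 was at 4793 and 6743 CPM in control, 4084 and 5589 in E2F and 3561 and 3537 in E2F+CycD wings, a change of -0.70 ± 0.25 in E2F+CycD that turned to 0.29 with library totals. Of its exon bases 92.7% overlap CG46316 on the same strand, a gene not used here. CG14431, whose promoter holds the one E2F match, was at 2555 and 6736, 5127 and 6930, and 3585 and 2843 CPM, with both induced genotypes overlapping control. Its change in E2F+CycD wings was -0.53 ± 0.46 (adjusted p = 0.356 by edgeR), and a missed threshold does not show equal levels.

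CG6972 and CG9297, which hardly appeared in control wings, were at 0.449 to 1.56 and 1.82 to 3.66 CPM over all transgenic libraries at 44 h and gave no call. CG33521, most like Lasp (36.8% over 57 residues), a protein of the muscle sarcomere and cytoskeleton, was at 2.93 and 4.54 CPM in control, 1.43 and 3.20 in E2F and 0.857 and 0.769 in E2F+CycD wings. It was called in E2F+CycD (-2.18 ± 0.58, adjusted p = 0.00823 by edgeR), but not without control replicate 2 (-1.73), without E2F+CycD replicate 2 (-2.10) or with library totals (-1.20). The muscle sum was 46.2 and 59.95 CPM in control, 56.4 and 87.5 in E2F and 33.1 and 22.8 in E2F+CycD wings. Its part in the result for CG33521 was not tested.

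The direct comparison of the induced genotypes asked whether CycD and Cdk4 added to E2F. At 44 h 18 of the 48 genes were called lower in E2F+CycD than in E2F wings (against 6.89% of all tested genes) and 0 higher (against 4.72%), with a median change of -0.95 against -0.07. At an unadjusted p under 0.05 the edgeR test gave 30 lower and 0 higher, and DESeq2 called 19 lower and 0 higher. By the fitted value 46 of 48 were lower. The largest difference was that of CG3108, -5.16 ± 0.56 (adjusted p = 9.9e-05), followed by CG13720 at -4.75 ± 0.56, CG14770 at -4.29 ± 0.58, CG13748 at -4.08 ± 0.63, CG11693 at -3.78 ± 0.60 and CG14866 at -3.36 ± 0.49. For CG42331 it was -1.83 ± 0.46, a call lost without E2F replicate 2 (-1.26) or without E2F+CycD replicate 2 (-1.57). For CG13631 it was -1.06 ± 0.33, lost without E2F replicate 2 or either E2F+CycD replicate. The genotypes also differ in the level of E2f1 and Dp, so added CycD and Cdk4 and a lower level of E2f1 and Dp RNA cannot be told apart.

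The E2F libraries at 44 h stood apart from each other across these genes. Replicate 2 was higher in 45 of the 48, by a median of 1.63 times (0.707 to 6.65), whereas the ratio of the control replicates at 44 h ran from 0.103 to 5.36 around a median of 0.998. The E2F+CycD replicates were within 2-fold in 46 of 48. The summed markers of wing epithelium (5 of 6 found) were at 1410 and 1419 CPM of the library total in the E2F libraries at 44 h, 1036 and 1223 in control and 2056 and 2141 in E2F+CycD wings, and those of fat body (6 of 6) at 406 and 272, 126 and 152, and 281 and 229 CPM. Against these sums, the wing marker Dll was lower in E2F than in control wings, at 119 and 138 against 158 and 223 CPM. The fat body marker Yp1 was at 0.21 and 0.38 CPM in E2F, 35.2 and 3.59 in control and 0 and 0.074 in E2F+CycD wings. In the same order of genotypes hemocyte markers (6 of 6) were at 273 and 284, 213 and 269, and 327 and 275 CPM. Glial markers (2 of 2) were at 85.7 and 60.3, 26.1 and 30.5, and 122 and 109 CPM. Most of the glial sum was moody, at 75.67 and 52.01, 21.08 and 24.7, and 115.6 and 103.1 CPM. The other glial marker, repo, was at 9.993 and 8.261, 5.003 and 5.79, and 6.64 and 6.386 CPM. The hemocyte marker He was under 1 CPM in all 6 libraries. Without E2F replicate 2, 11 genes were called lower than E2F in E2F+CycD wings, and without replicate 1, 24 were. The part of these differences in the results was not tested.

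The rise with time was not abolished. From 24 h to 44 h, 46 of the 48 genes were called higher in E2F wings (against 16.5% of all tested genes) and 44 in E2F+CycD wings (against 13.7%), with medians of 6.23 and 5.64. The genes not called were CG9297 and CG6972 in E2F, and these with CG33521 and CG13748 in E2F+CycD wings. Those called include CG13634 in both genotypes and CG33521 in E2F wings, which passed the filter through groups at 44 h only. CG14770 still rose from 1.93 CPM in both E2F+CycD libraries at 24 h to 53.0 and 51.0 CPM, and CG42331 from 12.9 and 10.3 to 6631 and 4537 CPM.

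Levels were already lower than in control wings at 24 h. The summed level in control wings, however, stood above wild type at that stage. The 49 genes together took 0.0371 and 0.0793% of counts in the wild-type libraries at 24 h and 0.218 and 0.115% in control. They took 0.0752 and 0.0611% in E2F and 0.0366 and 0.0359% in E2F+CycD wings, so by this sum the induced wings were nearer wild type than control was. Within it, CG42331 alone held 966 and 408 CPM of the library total in control, against 2.93 and 45.8 CPM in wild type at 24 h. At that stage 18 genes were called lower in E2F than in control wings (against 2.01% of all tested genes) and 1 higher (against 9.88%). In E2F+CycD wings 27 were called lower (against 1.95%) and 0 higher (against 5.67%). At an unadjusted p under 0.05, edgeR gave 34 lower and 1 higher, and DESeq2 called 32, of which 0 were higher. The medians were -1.09 and -1.98. Without either E2F library at 24 h, 12 genes were called in E2F in place of 19. At both stages 17 genes were called lower in E2F and 22 in E2F+CycD wings. Over all tested genes such overlaps cannot exceed the shares called lower at 24 h, 2.01% and 1.95%.

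CG14770 was at 151 and 67.3 CPM in control, 3.44 and 3.37 in E2F and 1.93 in both E2F+CycD libraries at 24 h, and CG42331 at 859 and 368, 89.0 and 45.5, and 12.9 and 10.3 CPM. Their changes in E2F+CycD wings were -5.82 ± 0.67 (adjusted p = 9.63e-05) and -5.72 ± 0.55 (adjusted p = 2.35e-05) by edgeR. The gene called higher in E2F at 24 h was CG42237 (1.16 ± 0.39, adjusted p = 0.0499), at 11.3 and 11.9 against 7.22 and 3.35 CPM. In control wings at 24 h replicate 1 was the higher in all but 9 of the 48 genes, with a median ratio of replicate 2 to replicate 1 of 0.641.

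Whether the change from 24 h to 44 h itself differed from control was tested as an interaction. In E2F wings it was more negative in 6 genes (against 7.5% of all tested genes) and more positive in 2 (against 6.16%), and in E2F+CycD wings more negative in 12 (against 9.68%) and more positive in 3 (against 7.98%). Without control replicate 2 at 24 h, 3 genes were called in E2F, and without either E2F library at 24 h or E2F replicate 1 at 44 h, 4 were. With library totals the split was 3 negative and 5 positive in E2F, and 6 negative and 11 positive in E2F+CycD wings. CG30076 rose from 7.30 and 4.68 CPM at 24 h to 786 and 457 CPM at 44 h in control but from 1.48 and 2.68 to 7.14 and 5.64 CPM in E2F+CycD wings, an interaction of -5.09 ± 0.68 (adjusted p = 0.000328 by edgeR). CG42331 had a positive interaction in E2F+CycD wings, 2.44 ± 0.64 (adjusted p = 0.0173), since it was further below control at 24 h than at 44 h. That call was lost without control replicate 1 at 24 h, without E2F+CycD replicate 2 at 24 h or without E2F+CycD replicate 1 at 44 h. CG11498 had positive interactions in both genotypes, 2.57 ± 0.55 and 2.32 ± 0.55.

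Genes with another FlyBase symbol that pass the same thresholds gave similar values. Of 59 such genes 58 were tested, with medians of -1.44 in E2F (34 called lower, 1 higher) and -2.38 in E2F+CycD wings (47 lower, 1 higher), so low levels were also seen in late genes that have names. The 59 include muscle genes, among them the markers Mhc, Mlc2 and up. The sum of muscle markers at 44 h was lower in control than in wild-type wings. The part of muscle RNA in the medians of this set, at 44 h or at 24 h, was not tested. Genes with CG symbols that peak at 36 h by the same rule went the other way, with 30 genes, 27 of them tested, medians of 1.98 and 1.78, and 16 and 14 called higher with 0 called lower in either genotype. At 24 h the other-symbol genes had medians of -0.38 in E2F and -0.32 in E2F+CycD wings, against -1.09 and -1.98 for the 48. The 135 tested genes of the cuticle list had medians of -0.90 and -1.65. No test of the difference between sets was made.

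**Figure D5:**
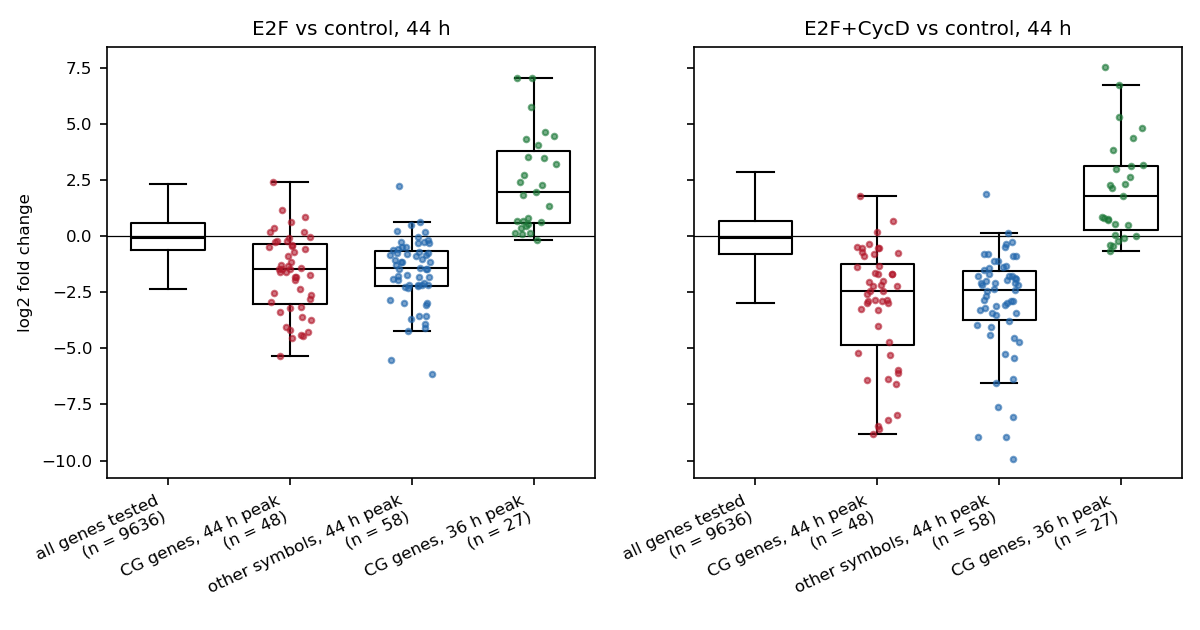
Log2 fold change against control at 44 h in E2F and E2F+CycD wings (y axis) for all 9636 tested genes, the 48 uncharacterized genes with a 44 h peak, 58 genes with other symbols and the same peak, and 27 uncharacterized genes with a 36 h peak. Boxes span the quartiles with the median, and points are single genes. Both sets with a 44 h peak lie mostly under 0 and the set with a 36 h peak mostly above it.

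The proteins share a few traits that the choice did not use. Their length ran from 56 to 1615 residues (median 475). A hydrophobic stretch near the N-terminus, as in proteins that enter the secretory pathway, was found in 31 of 49 (63.3%), against 33.8% of 13921 RefSeq genes with a protein. The 30 tested genes with it had a median change of -2.93 in E2F+CycD wings (23 called lower), and the 18 without it one of -1.83 (13 called lower). AAPA or AAPV occurred in 6 of 49 (12.2%, against 5.03% of all). For 27 of the 49 no similar protein of another fly gene was found. The 11 genes with a TATA box 25 to 40 bases before the start had a median change of -4.02 in E2F+CycD wings (10 called lower) against -2.21 for the other 37 (26 called lower), and GAAAGT made little difference (-2.45 with it and -2.40 without). These groups were compared by description, without a test.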

How the data were processed

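RNA was measured in 24 libraries of whole wings, and the 34 samples of chromatin accessibility in the same series were not analysed here. The authors made stranded mRNA libraries, aligned the reads to dm6 with STAR and counted them per gene with HTSeq, and they deposited raw counts for each library with replicates apart. Tool versions, annotation release and strand setting are not given in the sources used here. Rows that name no gene (36.5 to 68.9% of a wild-type and 42.9 to 59.8% of a transgenic library) were left out of totals and tests. No other column of values was set aside. Samples were grouped by the titles in GEO. Nothing in the labels ties the replicates to separate animals or gives a batch, so p-values measure the spread between these samples, which may be technical.

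The members and the lists were chosen with earlier results of these data known. From the deposited counts, CPM were computed on the total over genes, and the rule was applied to wild-type means. The 12 transgenic libraries were fitted together in R 4.3.3 with edgeR 4.0.16 (one coefficient per group, TMM scaling, filterByExpr at 10 counts in a library and 15 in total, quasi-likelihood test, Benjamini-Hochberg adjustment over 9636 genes). A call needed an adjusted p under 0.05 and a log2 change beyond 1. The common biological coefficient of variation was 16.4%. The floor of 3 counts was 0.184 to 0.268 CPM in the transgenic libraries and 0.399 to 1.58 CPM in wild type. The procedure was tested on simulated data for E2F+CycD against control at 44 h, where edgeR recovered 200 of 200 genes changed by 2 on the log2 scale, with 2 false calls over 9249 genes, and DESeq2 1.42.0 recovered 200 with 2 false calls. Every simulated gene had the same dispersion, and the changed genes averaged at least 50 counts. All groups otherwise had the same mean levels. The shift in scaling factors between the real groups was thus absent, so these numbers do not give the error rates in the real data.

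Genes named were the 12 most abundant per kilobase, up to 6 a direction with the largest called change in each comparison given at least 50 counts per library in the group with more and groups that do not overlap, the 6 with the smallest change in E2F+CycD wings, those at the thresholds, neighbours, and classes of 5 or fewer. Others, named for a similar protein or for muscle markers, were chosen after their values were seen. Proteins were translated from the RefSeq annotation of Release 6 (all 49 matched by symbol or identifier) and compared with BLAST+ 2.17.0 at an E value of at most 1e-05. Promoters came from the same source. Alternatives were DESeq2, RLE scaling, library totals, a replicate block, all genes with any count, only the groups compared, each library left out, and other thresholds of the rule.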

Additional observations from a re-analysis of the deposited data

Results flagged for a closer look

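The change from 24 h to 44 h APF differed from that in control wings, by edgeR's interaction test, in 8 genes for E2F and in 15 for E2F+CycD wings. Values are the log2 change in the induced genotype less that in control. In E2F wings 12.5% of the 48 tested genes were called negative and 4.17% positive, against 7.5% and 6.16% of all tested genes. The median difference there was -0.20, near the -0.13 of all tested genes. In E2F+CycD wings 25% were negative and 6.25% positive, against 9.68% and 7.98%. In E2F wings the difference was -2.76 for CG13748, -2.03 for CG43897, -1.91 for CG15005, -1.75 for CG42237, -1.69 for CG15211 and -1.1 for CG1275, and it was positive for CG13272 (1.87) and CG11498 (2.57).

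In E2F+CycD wings the difference was -5.87 for CG13748, -5.09 for CG30076, -4.91 for CG13720, -3.39 for CG33521 and -3.36 for CG3108. It was -2.86 for CG43897, -2.66 for CG14770, -2.42 for CG34038, -1.8 for CG9664, -1.52 for CG15211, -1.51 for CG1275 and -1.1 for CG8654. It was positive for CG13272 (1.04), CG11498 (2.32) and CG42331 (2.44).

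Leaving out a single library ended the call for 6 genes in E2F (CG13748, CG43897, CG15005, CG42237, CG15211 and CG1275) and for 8 in E2F+CycD wings (CG13272, CG13720, CG14770, CG15211, CG3108, CG33521, CG42331 and CG8654). The call of CG11498 in both genotypes, that of CG13272 in E2F wings, and those of CG13748, CG30076, CG43897, CG34038, CG9664 and CG1275 in E2F+CycD wings held in each of these fits. CG15005, CG42237 and CG43897 were at 27.5 to 42.0, 3.35 to 7.22 and 3.35 to 6.35 CPM in control wings at 24 h.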

How the results depend on the processing

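Calls of the uncharacterized genes at 44 h kept within 1.5 times of 31 in E2F against control, 37 in E2F+CycD against control and 18 in E2F+CycD against E2F with DESeq2, RLE scaling, library totals, every gene with at least 1 count, only the groups compared, and with the replicate block, which gave 31, 37 and 18. The replicate numbers did not pair the samples (correlations of deviations between groups from -0.0689 to 0.13, 5 of 15 above 0.1), and the block gave 48 calls for control 44 h against 24 h, 46 and 43 for E2F and E2F+CycD over time, 16 and 27 for E2F and E2F+CycD against control at 24 h, and 7 and 15 for the interactions. With every gene of at least 1 count, calls rose from 19 to 29 in E2F at 24 h, from 8 to 15 and from 15 to 25 for the interactions of E2F and E2F+CycD, and with only the groups compared from 8 to 4 for the first. A fold threshold of 6 left 31 of the 49 genes, and TMM-scaled CPM in the rule gave 73, which include all 49.

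With 1 library left out, calls ran from 46 to 48 for control over time, 27 to 33 in E2F and 35 to 39 in E2F+CycD against control at 44 h, 11 to 24 between these, 44 to 46 and 40 to 44 over time in E2F and E2F+CycD, 12 to 18 and 19 to 26 at 24 h, and 3 to 11 and 10 to 18 for the interactions. The rule on single wild-type replicates gave 45 to 50 genes. Leaving out 8 genes with unequal wild-type libraries, chosen after seeing the data, left 26, 31 and 13 calls at 44 h.

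Of 1332 recomputed values over 124 gene comparisons, 1199 kept direction and call, 96 lost and 13 gained the call, and 24 changed sign, none of them called in the first fit. With library totals, E2F+CycD against control became 0.63 for CG7884, 0.495 for CG32354, 0.485 for CG15506, 0.446 for CG6972, 0.462 for CG14431 and 0.289 for CG13627, and E2F against control 0.016 for CG42237, 0.351 for CG13627, 0.217 for CG8654, 0.521 for CG9297 and 0.18 for CG6972. With 1 library left out, E2F+CycD against control ran from -0.109 to 0.814 for CG9297, -1.09 to 1.42 for CG7884, -0.799 to 0.048 for CG32354, -1.66 to 0.104 for CG6972 and -1.04 to 0.444 for CG14431. E2F against control ran from -0.183 to 0.629 for CG32354, -0.478 to 0.046 for CG13627, -0.705 to 0.071 for CG8654, -0.137 to 1.27 for CG14431 and -0.464 to 0.537 for CG9297 (0.002 with only the groups compared), and E2F+CycD against E2F from -1.91 to 0.816 for CG7031. The causes were not tested. Genes near the floor, such as CG6972, rest on few counts.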
